A study of Mus musculus with 9 samples.

Results

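The nuclear genes for respiratory complexes III and IV and for ATP synthase, with the gene for cytochrome c, were examined in the left ventricle of male mice. Members were taken by gene symbol in the authors' comparison table: every symbol that begins with Uqcr, Cox4 to Cox8 or Atp5, and the symbols Cyc1 and Cycs. This rule gave 60 probe sets for 45 genes, of 35556 probe sets and 23069 named genes in all. There were 9 genes of complex III, 1 for cytochrome c, 18 of complex IV and 17 of ATP synthase, and each was represented by its probe set with the highest mean over the 9 arrays.

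The study ran 1 Affymetrix MoGene array per sample in 3 groups of 3. Wild-type mice received a vitamin A sufficient diet, mice labelled Lrat-/- received the same sufficient diet, and further mice labelled Lrat-/- received a vitamin A deficient diet. All animals were killed after 50 days on the diet, and the sufficient diet was the deficient one with 250000 U/kg of retinol palmitate added. The product of Lrat, lecithin retinol acyltransferase, makes the retinyl esters that serve as the tissue store of vitamin A. There were no wild-type arrays on the deficient diet, so the diet comparison holds for the Lrat-/- label alone. One array was run per sample, but nothing in the labels says that samples of a group came from separate animals, so p-values measure the spread between these samples, which may be technical. Age, strain background and the part of Lrat that was deleted are not given in the sources used here.

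Complex III takes electrons from ubiquinol and passes them to cytochrome c, complex IV passes them on to oxygen, and both pump protons across the inner mitochondrial membrane. ATP synthase lets the protons back through a rotating ring in its membrane part, Fo, and uses that rotation to make ATP in its catalytic head, F1. Heart muscle depends on this route for nearly all of its ATP, and complex IV has subunit isoforms used mainly in heart and skeletal muscle. The question the design poses for these genes is whether their transcripts differ with the genotype, with the diet, or with both.

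Lrat itself was read first as a check of the labels. Its log2 RMA signal was 5.81, 5.78 and 5.73 on wild-type arrays, 7.29, 7.34 and 7.38 on sufficient Lrat-/- arrays and 6.84, 6.78 and 6.96 on deficient Lrat-/- arrays. The signal was higher, not lower, on every array labelled Lrat-/-, with a log2 difference of 1.57 ± 0.07 on the sufficient diet (limma, adjusted p = 1.87e-05). All 9 values were below 7.53, the level under which 95% of the 5222 negative control probe sets lay. Where this probe set lies relative to the deletion was not tested, and every direction below rests on the labels.

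The tissue label was checked against cell type markers. All 10 cardiomyocyte markers were above that level, and of the 7 skeletal muscle markers only Acta1 and Ckm, which heart also expresses, were above it. Array medians over all probe sets lay between 6.38 and 6.43. Of the 45 members, 42 had a mean above the control level, and the other 3 were Cox6b2, Cox7b2 and Cox8c. Signals of 12 or more were found for 35 members, and the highest signal of any gene on an array was 14.61 to 14.77. Of the members, 15 lay within 1 log2 unit of the lower of these limits, near the top of the scale. The members' values carry no depth, and 3 arrays per group limit the precision. In whole ventricle, fewer cells of a type and less RNA per cell cannot be told apart.

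Wild-type array 3 stood apart from the other wild-type arrays for these genes. It had the highest of the 3 wild-type signals for 39 of the 45 members (86.7%), against 35.5% of all genes and 63.3% of the 706 genes with a mean of 12 or more. The exceptions were Atp5f1, Uqcrc1, Uqcrh, Cox6b2, Cox7a1 and Cox7b. The median SD over the members was 0.11 log2 units among the wild-type arrays, 0.07 among the Lrat-/- arrays on the sufficient diet and 0.06 on the deficient diet. Over all genes these medians were 0.11, 0.11 and 0.09. Endothelial markers went the other way on wild-type array 3: the summed log2 signal of the 8 genes was 75.8 there, the lowest of the wild-type arrays, which reached 80.2. The 8 fibroblast markers were also lowest there among the wild-type arrays, at 77.6, where the highest was 79.6. The part of these markers in the members' values was not tested. Comparisons with the wild-type group are given below with and without this array where it changes a call.

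**Figure D1:**
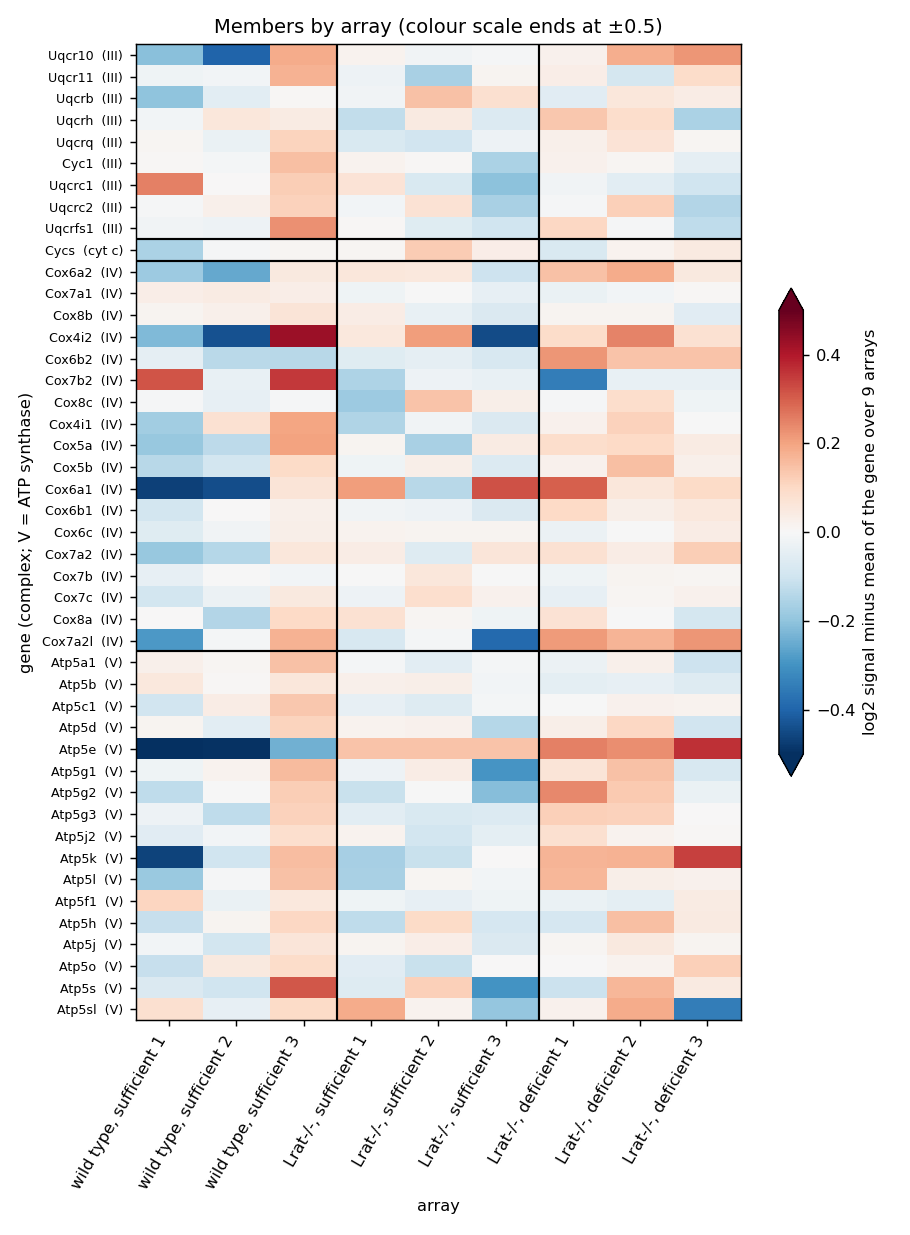
Log2 signal of the 45 members (rows, grouped by complex) on the 9 arrays (columns), each as the difference from the mean of that gene over the 9 arrays, with the colour scale ending at ±0.5. Atp5e runs from dark blue on wild-type arrays 1 and 2 to red on the deficient arrays, and the third column is red for most genes.

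The level of each complex was then followed array by array, as the mean over its genes of the log2 signal minus the mean of the gene over the 9 arrays. For complex III it was -0.02, -0.05 and 0.13 on wild-type arrays, -0.02, -0.02 and -0.07 on sufficient Lrat-/- arrays and 0.03, 0.04 and -0.02 on the deficient ones. For complex IV it was -0.10, -0.10 and 0.10, then -0.01, 0.00393 and -0.05, then 0.05, 0.07 and 0.04. For ATP synthase it was -0.09, -0.06 and 0.10, then -0.03, -0.00273 and -0.08, then 0.05, 0.09 and 0.02. Wild-type array 3 was the highest of all 9 arrays for each complex, and the wild-type range spanned both other groups for complex IV and ATP synthase. Within the Lrat-/- label, every deficient array was above every sufficient array for complex IV and for ATP synthase, while the groups overlapped for complex III. These levels are a description, with no test.

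**Figure D2:**
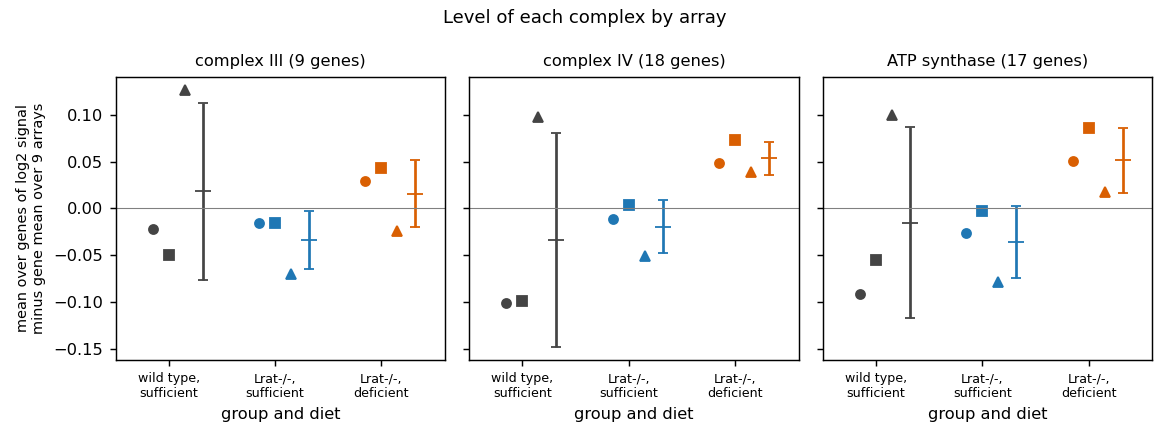
Level of complex III, complex IV and ATP synthase on each array (circles, squares and triangles are replicates 1, 2 and 3), as the mean over the genes of the log2 signal minus the gene mean over 9 arrays, with the group mean and SD beside the points. The wild-type triangle at 0.10 to 0.13 tops each panel, and the deficient arrays lie above the sufficient Lrat-/- arrays for complex IV and ATP synthase.

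Between genotypes on the sufficient diet, no member passed an adjusted p of 0.05 (limma with Benjamini-Hochberg adjustment over 23069 genes), where 0.134% of all genes did. At an unadjusted p under 0.05, Atp5e and Cox6a1 were higher and Cox7b2 was lower on the arrays labelled Lrat-/-, or 2 and 1 of 45 members, where 3.13% of all genes were higher and 3.77% lower. The members' median log2 difference was -0.04, with 18 higher and 27 lower, beside -0.000892 and 49.6% higher over all genes and 46% higher among the 706 genes with a mean of 12 or more. Without wild-type array 3 the members' median was 0.00477, with 23 of 45 higher. By complex the median was -0.09 for complex III (2 of 9 higher), 0.02 for complex IV (12 of 18 higher) and -0.05 for ATP synthase (3 of 17 higher). Without wild-type array 3 these medians were -0.04, 0.05 and -0.00839, and 1 member, Atp5e, passed. The complex IV median was below 0 without wild-type array 1 or 2 (-0.0067 and -0.00297). The 95% interval of the difference lay within 1.5-fold in either direction for 43 of the 45 members, the exceptions being Atp5e and Cox6a1, and within 1.2-fold for 24.

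Cardiomyocyte markers were lower on the sufficient Lrat-/- arrays too. Their summed log2 signal was 133.4 to 133.7 on wild-type arrays, 132.3 to 132.8 on sufficient Lrat-/- arrays and 132.0 to 132.7 on deficient ones, so that neither Lrat-/- group overlapped with wild type. Of the 10 markers 7 had a lower mean by genotype, 5 of them without overlap, and 10 had a lower mean for genotype and diet together, 3 of them without overlap. Over all genes 4.27% and 6.38% were lower without overlap in these comparisons. Among the 706 genes with a mean of 12 or more, 69 and 47 were. None of the 10 passed. By genotype all 8 endothelial markers (median -0.20) and 7 of the 8 fibroblast markers (median -0.18) were lower too. The cardiomyocyte median was -0.07. All 5 red blood cell markers and 4 of the 6 smooth muscle and pericyte markers were higher. For genotype and diet together, all 8 endothelial and all 8 fibroblast markers were lower (medians -0.38 and -0.22). The part of these markers in the members' values was not tested.

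Between diets within the Lrat-/- label, again no member passed, and neither did any other gene (0% of all genes). Here 4 members were higher on the deficient diet at an unadjusted p under 0.05 (Cox6b2, Cox7a2l, Atp5k and Atp5g2) and 0 were lower, where 2.31% of all genes were higher and 2.07% lower. Among the 706 genes with a mean of 12 or more, 33 were higher and 10 lower. In the limma fit of every probe set, the unadjusted p was 0.0570 for Atp5k and 0.0581 for Atp5g2. The members' median log2 difference was 0.07, with 35 higher and 10 lower, beside 49.4% higher over all genes. Without sufficient Lrat-/- array 3 the members' median was 0.04, with 29 of 45 higher. After a further quantile normalization of the arrays the median was 0.01, with 26 of 45 higher. Genes with a mean signal of 12 or more, the range in which most members lie, were also mostly higher on the deficient diet, at 73.8% of 706 with a median of 0.06. The medians were 0.04 for complex III, 0.05 for complex IV and 0.08 for ATP synthase, with 8 of 9, 13 of 18 and 14 of 17 genes higher. With any one array left out they ran from 0.02 (without sufficient Lrat-/- array 3) to 0.09 (without deficient array 3) for complex III, from 0.04 to 0.07 for complex IV and from 0.05 to 0.10 for ATP synthase. After a further quantile normalization the complex III median was -0.00387. The complex IV set takes in Cox6b2, Cox7b2 and Cox8c, which lay below the control level. The ATP synthase set takes in Atp5s and Atp5sl, listed in the gene table as Dmac2l and Dmac2. Smooth muscle and pericyte markers separated the same groups, with summed log2 signals of 51.9 to 53.4 on sufficient and 50.0 to 51.3 on deficient Lrat-/- arrays. All 6 had a lower mean on the deficient diet (median -0.21), 3 of them (Myh11, Tagln and Cnn1) lay below the control level, and their part in the members' values was not tested.

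Groups that did not overlap were counted as well. On the deficient diet 11 members had all 3 arrays above all 3 sufficient Lrat-/- arrays (Atp5c1, Atp5e, Atp5g3, Atp5k, Atp5l, Uqcr10, Uqcrq, Cox4i1, Cox6b1, Cox6b2 and Cox7a2l) and 1, Atp5b, had them below. Over all genes the shares were 4.72% above and 4.94% below, and among genes with a mean of 12 or more 15.2% and 4.53%. Between genotypes, 1 member (Atp5e) was above without overlap and 2 (Atp5a1 and Cox7a1) below, where 3.69% and 4.27% of all genes were. The interval of the diet difference lay within 1.5-fold for 42 members, with Atp5k, Cox4i2 and Cox7a2l outside.

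With genotype and diet together, 1 member passed, where 0.13% of all genes did: Atp5e, which rose on the deficient Lrat-/- arrays against wild type. At an unadjusted p under 0.05, 5 members were higher (Atp5e, Cox6b2, Cox6a2, Cox6a1 and Atp5k) and 1 lower (Cox7b2), where 3.75% and 5.29% of all genes were. The median over the 45 members was 0.02, with 28 higher (62.2%), where 49.8% of all genes and 64.2% of the genes with a mean of 12 or more were. It was below 0 after a further quantile normalization (-0.02, 22 higher) and without wild-type array 1 (-0.00608, 20 higher). Without overlap, 4 members were above wild type and 3 below, where 5.13% and 6.38% of all genes were. The moderated F test for any difference among the 3 groups gave the same single member, where 0.121% of all genes passed. The comparisons with wild type share the wild-type arrays, and both diet-containing comparisons share the deficient arrays, so they are not independent of each other.

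**Figure D3:**
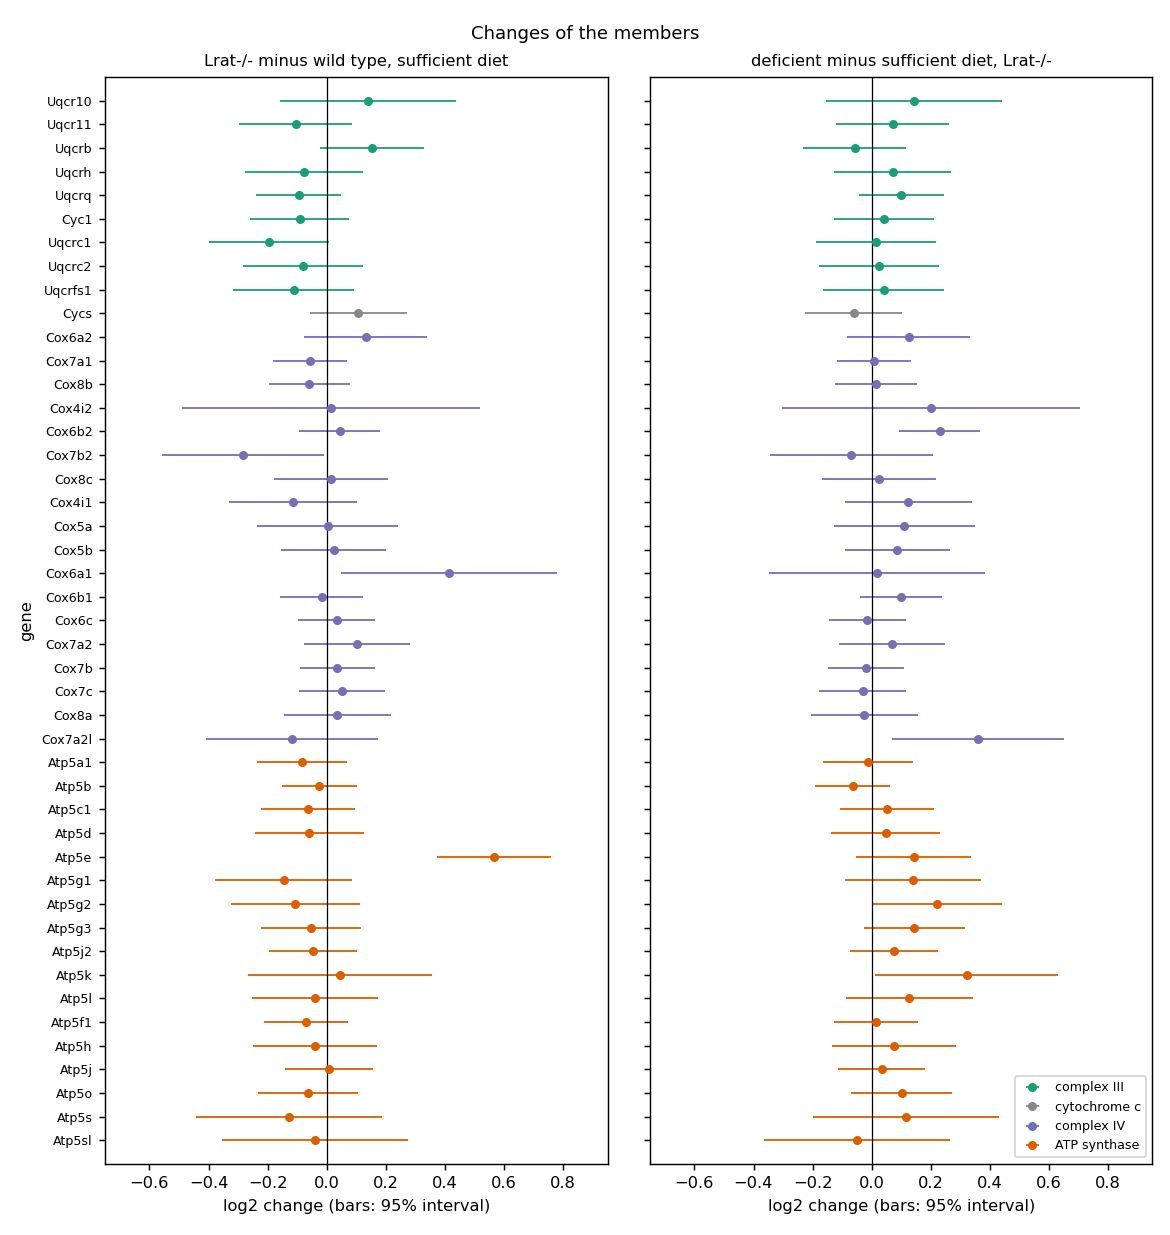
Log2 difference of each of the 45 members with its 95% interval from limma (bars), for the genotype comparison on the sufficient diet (left) and deficient minus sufficient diet within Lrat-/- (right), coloured by complex. Atp5e at 0.57 stands to the right of the others in the left panel, and most points of the right panel lie between 0 and 0.15.

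In the catalytic F1 part of ATP synthase, Atp5e was higher in both groups labelled Lrat-/- and was the member with the largest difference. It encodes the epsilon subunit, a small protein of the central stalk that turns inside the head. Its single probe set read 12.25, 12.30 and 12.55 on wild-type arrays, 12.93, 12.93 and 12.93 on sufficient Lrat-/- arrays and 13.04, 13.02 and 13.15 on deficient Lrat-/- arrays. All 6 arrays labelled Lrat-/- were above all 3 wild-type arrays, and all 3 deficient arrays were above the sufficient ones. The log2 difference was 0.57 ± 0.09 between genotypes on the sufficient diet, a 1.48-fold difference that missed the threshold (limma, adjusted p = 0.0583), and 0.14 ± 0.09 between diets (adjusted p = 0.959). For genotype and diet together Atp5e rose by 0.71 ± 0.09, or 1.63-fold (adjusted p = 0.0174), and the F test gave an adjusted p of 0.0352.

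The calls on Atp5e turned on single arrays and settings. Without wild-type array 3 the genotype difference was 0.66 and passed (adjusted p = 0.0131), and it also passed when dim genes were left out or the arrays were quantile-normalized again (adjusted p = 0.0149 to 0.0487). The genotype difference did not pass in a limma fit of the 2 groups compared alone (adjusted p = 0.390) or with every probe set tested (0.123). Neither did it pass with the replicate number as a block (0.0870) or without any one array other than wild-type array 3 (0.123 to 0.229). The combined difference was lost without wild-type array 1 or 2 or any one of the 3 deficient arrays (adjusted p = 0.0684 to 0.137), and in a fit of those 2 groups alone (0.117), while the log2 difference itself stayed between 0.65 and 0.80 whichever array was left out. The F test lost its call with the replicate number as a block (adjusted p = 0.0705), with every probe set tested (0.0822) and without any one array (0.0809 to 0.151) except wild-type array 3 (0.0103). The authors' deposited table gave ratios of 1.41, 1.07 and 1.52 for the 3 comparisons in the same order, p-values of 0.000823, 0.248 and 0.000298, and a false discovery rate of 0.309 over the 3 groups.

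Red blood cell markers were higher in the same groups as Atp5e. The summed log2 signal of the 5 markers read was 51.9 to 54.0 on wild-type arrays, 54.6 to 56.2 on sufficient Lrat-/- arrays and 55.7 to 60.1 on the deficient ones, and the defining markers Ahsp and Slc4a1 were below the control level. Their part in the Atp5e result was not tested. Without Atp5e the level of ATP synthase was -0.06, -0.03 and 0.12 on wild-type arrays, -0.04, -0.01 and -0.09 on sufficient Lrat-/- arrays and 0.04, 0.08 and -0.00429 on deficient arrays.

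The promoters of 3 members are printed, for Atp5e as the only member called, for Cox6a1 as the next largest genotype difference and for Cox7a2l as the largest diet difference. They are RefSeq windows of build GRCm38.p6, from 250 bases before to 50 bases after the gene's start, all on the minus strand and written 5′ to 3′: chr2:174464052-174464351 for Atp5e, chr5:115348909-115349208 for Cox6a1 and chr17:83514284-83514583 for Cox7a2l. Capitals mark matches on either strand to the NRF1 core GCATGCGC, the ETS factor motif CCGGAAG, the YY1 core AAGATGG or the Sp1 GC box GGGCGG.
Atp5e: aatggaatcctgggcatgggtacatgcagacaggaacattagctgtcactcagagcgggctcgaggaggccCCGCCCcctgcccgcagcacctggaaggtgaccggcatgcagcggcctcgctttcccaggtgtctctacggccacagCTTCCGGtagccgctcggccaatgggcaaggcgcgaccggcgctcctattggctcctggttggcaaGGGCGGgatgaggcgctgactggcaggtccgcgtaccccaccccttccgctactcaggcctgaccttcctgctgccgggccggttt
Cox6a1: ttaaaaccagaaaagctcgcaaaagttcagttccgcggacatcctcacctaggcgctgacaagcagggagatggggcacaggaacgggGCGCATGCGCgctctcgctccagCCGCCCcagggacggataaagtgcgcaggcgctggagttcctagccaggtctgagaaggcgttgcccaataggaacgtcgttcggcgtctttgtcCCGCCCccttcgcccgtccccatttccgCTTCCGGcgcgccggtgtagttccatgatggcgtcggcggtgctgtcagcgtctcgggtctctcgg
Cox7a2l: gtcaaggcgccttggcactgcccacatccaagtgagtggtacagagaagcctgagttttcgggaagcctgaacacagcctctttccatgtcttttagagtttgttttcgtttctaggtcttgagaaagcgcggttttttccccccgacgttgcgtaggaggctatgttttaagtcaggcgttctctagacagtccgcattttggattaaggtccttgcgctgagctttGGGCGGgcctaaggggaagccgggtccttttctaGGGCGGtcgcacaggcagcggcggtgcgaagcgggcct
NRF1 (nuclear respiratory factor 1) and GABP, an ETS factor, are known activators of nuclear genes for the respiratory chain. Atp5e had 1 ETS match at -102 from the start and 2 GC boxes, Cox6a1 had NRF1, ETS and GC box matches, where its 2 NRF1 matches overlap on opposite strands, and Cox7a2l had GC boxes alone.

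Such windows were matched for 35 of the 45 members, with 39 windows in all, and were compared with all 32851 windows of the table. The NRF1 core was in 17.9% of the members' windows and 2.71% of all windows, and the ETS motif in 25.6% and 8.86%. For the YY1 core these shares were 15.4% and 6.34%, and for the Sp1 GC box 33.3% and 35.7%. The element of estrogen-related receptors, TCAAGGTCA, was in 1 member window, that of Atp5g3, against 0.423% of all, and the MEF2 motif in 1, that of Cox5b, against 3.69%. The DR5 element, a direct repeat to which retinoic acid receptors bind, was in 0 of the 39 windows and 3 of all windows. Both NRF1 and ETS matches were found for Cox6a1, Atp5k, Atp5l and Uqcr11. Their log2 differences were 0.41, 0.05, -0.04 and -0.11 by genotype and 0.02, 0.32, 0.13 and 0.07 by diet. None of these passed, and a link between the matches and the differences was not tested. A match is a run of letters in the window, not a shown binding site.

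Of the other F1 subunits, Atp5a1 encodes the alpha subunit of the head and read 13.28, 13.26 and 13.40 in wild type, 13.24, 13.20 and 13.25 in sufficient Lrat-/- and 13.23, 13.28 and 13.15 in deficient Lrat-/- samples. The sufficient Lrat-/- arrays lay just below the wild-type arrays without overlap, with a log2 difference of -0.08 (unadjusted p = 0.241). Atp5b (the catalytic beta subunit), Atp5c1 (gamma) and Atp5d (delta) differed by -0.03, -0.06 and -0.06 between genotypes and by -0.06, 0.05 and 0.05 between diets. Of the 5 F1 genes, Atp5e alone was above 0 between genotypes, and the differences of the other 4 were each under 0.09 in size.

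The c-ring, the rotor of Fo, is built from 1 mature protein that 3 genes encode with different import sequences. Atp5g1 read 14.13, 14.17 and 14.31 (wild type), 14.12, 14.19 and 13.85 (sufficient Lrat-/-) and 14.22, 14.30 and 14.07 (deficient Lrat-/-). Signals of Atp5g2 were 13.20, 13.33 and 13.45 in wild type, 13.22, 13.33 and 13.12 in sufficient Lrat-/- and 13.57, 13.46 and 13.30 in deficient Lrat-/- samples, and Atp5g3 gave 13.55, 13.45 and 13.69 (wild type), 13.52, 13.50 and 13.51 (sufficient Lrat-/-) and 13.69, 13.69 and 13.58 (deficient Lrat-/-). All 3 genes were lower on the Lrat-/- label than in wild type on the sufficient diet (-0.15, -0.11 and -0.05) and higher on the deficient than on the sufficient diet (0.14, 0.22 and 0.14), and none passed in either comparison. Without wild-type array 3 the genotype difference of Atp5g3 was 0.00975. The lowest unadjusted p was 0.0472, for Atp5g2 by diet, and only the Atp5g3 groups did not overlap there. Atp5g2 was measured by 3 probe sets with diet differences of 0.22 to 0.23, and Atp5g1 by 2 with 0.11 and 0.14. Whether the probe sets of either gene share sequence was not tested.

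Among the small membrane subunits, Atp5k encodes subunit e, which helps hold ATP synthase dimers together. It read 11.42, 11.78 and 12.03 on wild-type arrays, 11.71, 11.77 and 11.88 on sufficient Lrat-/- arrays and 12.05, 12.05 and 12.22 on deficient Lrat-/- arrays. Wild-type array 1 was low and wild-type array 3 lay just below the deficient arrays, while every deficient array was above every sufficient Lrat-/- array, by 0.32 ± 0.14 (adjusted p = 0.959). Atp5l (subunit g) and Atp5j2 (subunit f) were higher by 0.13 and 0.08 on the deficient diet. In the peripheral stalk, which keeps the head from turning, Atp5f1 (subunit b) read 12.89, 12.75 and 12.83 in wild type, 12.76, 12.74 and 12.76 in sufficient Lrat-/- and 12.75, 12.73 and 12.82 in deficient Lrat-/- samples, and its groups overlapped in both comparisons. Diet differences of the 4 peripheral stalk genes ran from 0.02 for Atp5f1 to 0.10 for Atp5o, and none passed. Atp5s and Atp5sl, which carry the prefix but are listed in the gene table as Dmac2l and Dmac2, differed by -0.13 and -0.04 between genotypes and 0.12 and -0.05 between diets.

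**Figure D4:**
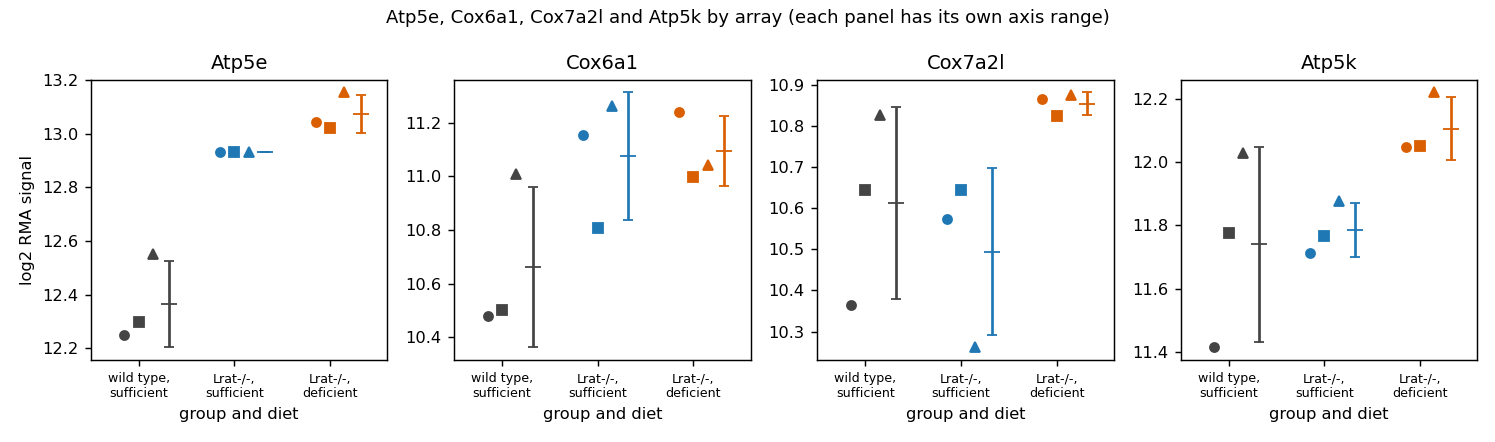
Log2 RMA signal of Atp5e, Cox6a1, Cox7a2l and Atp5k on each array (circles, squares and triangles are replicates 1, 2 and 3), with group mean and SD beside the points and a separate axis range per panel. For Atp5e the 3 groups do not overlap, and for Cox7a2l and Atp5k the deficient arrays lie above the sufficient Lrat-/- arrays while wild-type array 3 lies near them.

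In complex III, Uqcrc1 encodes a core subunit on the matrix side. It read 12.90, 12.65 and 12.76 on wild-type arrays, 12.71, 12.57 and 12.44 on sufficient Lrat-/- arrays and 12.62, 12.59 and 12.54 on deficient Lrat-/- arrays. Wild-type array 1 was the highest. The sufficient Lrat-/- arrays had a lower mean, with overlap through wild-type array 2 and a log2 difference of -0.20 ± 0.09 (limma, adjusted p = 0.729). The deficient Lrat-/- arrays were below wild type without overlap, by a log2 difference of -0.18 ± 0.09 (limma, adjusted p = 0.593). The other catalytic and core genes, Cyc1 (cytochrome c1), Uqcrfs1 (the Rieske iron-sulfur protein) and Uqcrc2 (the other core protein), differed by -0.09, -0.11 and -0.08 between genotypes and by 0.04, 0.04 and 0.02 between diets. All 4 of these genes were thus below wild type on the sufficient diet, and none passed.

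The small accessory subunits of complex III had differences of both signs, and none passed. Uqcrb, which encodes the ubiquinone-binding subunit, gave 13.58, 13.73 and 13.79 in wild type, 13.77, 13.93 and 13.86 in sufficient Lrat-/- and 13.73, 13.84 and 13.82 in deficient Lrat-/- samples. It was higher by 0.15 ± 0.08 between genotypes (unadjusted p = 0.0801), with wild-type array 3 inside the Lrat-/- range. Uqcr10 read 12.00, 11.80 and 12.39 (wild type), 12.22, 12.19 and 12.20 (sufficient Lrat-/-) and 12.23, 12.39 and 12.42 (deficient Lrat-/-), and here wild-type array 3 was above all the sufficient Lrat-/- arrays and arrays 1 and 2 below them. The deficient arrays of Uqcr10 were above the sufficient ones by 0.14 without overlap, but the standard error of the model was 0.13. Signals of Uqcrq were 13.29, 13.25 and 13.40 on wild-type arrays, 13.21, 13.19 and 13.26 on sufficient Lrat-/- arrays and 13.31, 13.35 and 13.29 on deficient Lrat-/- arrays. Its deficient arrays were also above the sufficient Lrat-/- arrays without overlap, by 0.10 ± 0.06. Uqcr11 gave 13.26, 13.27 and 13.46 in wild type, 13.25, 13.12 and 13.29 in sufficient Lrat-/- and 13.31, 13.19 and 13.37 in deficient Lrat-/- samples, with overlapping groups in every comparison. Uqcrh, the hinge protein that holds cytochrome c1 and cytochrome c together, differed by -0.08 and 0.07.

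Cycs encodes somatic cytochrome c, the soluble carrier between complexes III and IV. Its brightest probe set read 13.69, 13.84 and 13.86 (wild type), 13.86, 13.97 and 13.88 (sufficient Lrat-/-) and 13.77, 13.87 and 13.89 (deficient Lrat-/-). Wild-type array 1 was the lowest and the groups overlapped, with 0.11 ± 0.07 between genotypes and -0.06 ± 0.07 between diets. Another probe set gave 0.09 and -0.05. A dim one, whose mean of 7.18 lay below the control level of 7.53, gave 0.29 and -0.26. The probe sets thus had the same sign and different sizes. Whether each of these lies in the gene or in a near-identical copy elsewhere in the genome was not tested.

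In complex IV, several nuclear subunits exist as a pair of isoforms, of which one is used in most tissues and the other in heart and muscle or, for Cox4i2, in lung. Cox6a1, the form used in most tissues, read 10.48, 10.50 and 11.01 on wild-type arrays, 11.15, 10.81 and 11.26 on sufficient Lrat-/- arrays and 11.24, 11.00 and 11.04 on deficient Lrat-/- arrays. Wild-type arrays 1 and 2 were low, and wild-type array 3 lay within the range of the Lrat-/- arrays. The log2 difference between genotypes was 0.41 ± 0.16 (95% interval 0.05 to 0.78, unadjusted p = 0.0309, adjusted p = 0.681) and ranged from 0.32 to 0.59 when any one array was left out, the upper end being that without wild-type array 3 (adjusted p = 0.161). Cox6a2, the heart and muscle form, gave 13.25, 13.17 and 13.48 in wild type, 13.49, 13.48 and 13.33 in sufficient Lrat-/- and 13.58, 13.62 and 13.48 in deficient Lrat-/- samples. It was above wild type by 0.13 on the sufficient diet and by 0.26 ± 0.09 on the deficient diet (unadjusted p = 0.0206), again with wild-type array 3 in the Lrat-/- range. Both members of the pair had means above wild type, and neither passed.

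Cox7a1, the heart and muscle form of subunit 7a, read 14.08, 14.08 and 14.08 (wild type), 14.02, 14.04 and 14.00 (sufficient Lrat-/-) and 14.01, 14.03 and 14.05 (deficient Lrat-/-). All sufficient and all deficient Lrat-/- arrays were below the wild-type arrays without overlap, with log2 differences of -0.06 and -0.05 and a standard error of 0.06. Cox7a2, the form used in other tissues, gave 13.00, 13.05 and 13.25 on wild-type arrays, 13.23, 13.13 and 13.25 on sufficient Lrat-/- arrays and 13.27, 13.23 and 13.31 on deficient Lrat-/- arrays. It was higher by 0.10 and 0.17 on the same comparisons, with overlap at wild-type array 3. The fitted differences of this pair had opposite signs, and the difference between the isoforms was not tested.

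Cox4i1, the subunit 4 of most tissues, which is among the first to join the complex, read 12.97, 13.21 and 13.34 in wild type, 12.99, 13.12 and 13.07 in sufficient Lrat-/- and 13.16, 13.25 and 13.14 in deficient Lrat-/- samples. Its deficient arrays were above the sufficient Lrat-/- arrays by 0.12 ± 0.10, and wild-type arrays 1 and 3 lay outside both. Cox4i2, the form of lung that is known to respond to oxygen, gave 8.56, 8.34 and 9.21 (wild type), 8.83, 8.99 and 8.33 (sufficient Lrat-/-) and 8.87, 9.03 and 8.85 (deficient Lrat-/-). The SD was 0.45 among the wild-type arrays, 0.34 among the sufficient and 0.10 among the deficient Lrat-/- arrays, beside differences of 0.01 by genotype and 0.20 by diet, and the groups overlapped. For subunit 8, Cox8a of most tissues read 12.17, 12.02 and 12.27 on wild-type arrays, 12.24, 12.18 and 12.15 on sufficient Lrat-/- arrays and 12.24, 12.17 and 12.08 on deficient Lrat-/- arrays. Cox8b of heart and muscle gave 14.16, 14.17 and 14.21 in wild type, 14.18, 14.11 and 14.07 in sufficient Lrat-/- and 14.16, 14.16 and 14.09 in deficient Lrat-/- samples. The groups of both overlapped, and the genotype differences were 0.04 and -0.06.

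**Figure D5:**
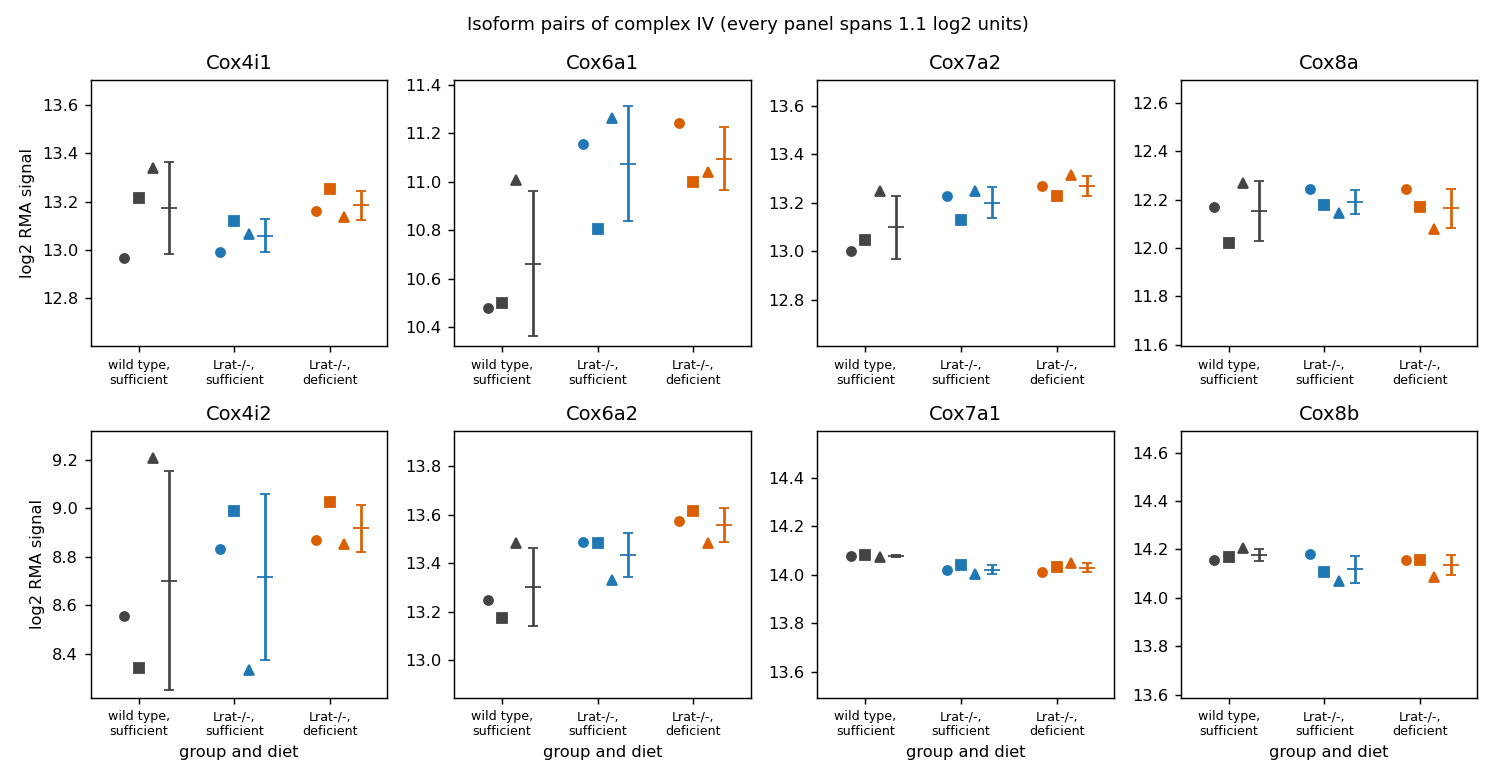
Log2 RMA signal on each array for 4 isoform pairs of complex IV, with the form of most tissues above and the form of heart and muscle (for Cox4i2, of lung) below; every panel spans 1.1 log2 units, points are replicates 1 to 3 and bars are the mean and SD. Cox7a1 and Cox8b, with means of 14.04 and 14.14 near the top of the scale, hold within 0.15 log2 units across the 9 arrays. Cox6a1 and Cox4i2, with means of 10.94 and 8.78, spread over 0.79 and 0.88.

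Cox7a2l encodes a protein related to subunit 7a that joins complexes III and IV into supercomplexes. It read 10.36, 10.64 and 10.83 (wild type), 10.57, 10.64 and 10.26 (sufficient Lrat-/-) and 10.86, 10.82 and 10.87 (deficient Lrat-/-). The 3 deficient arrays were close together and above all the sufficient Lrat-/- arrays, whose array 3 was the lowest, and wild-type array 3 was level with the deficient arrays. The diet difference of 0.36 ± 0.13 was the largest among the members (95% interval 0.07 to 0.65, unadjusted p = 0.0205, adjusted p = 0.959). Its other probe set gave the same diet difference of 0.36, but a genotype difference of -0.27 where the first gave -0.12. Whether these probe sets share sequence or lie at a near-identical copy of the gene was not tested.

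Of the remaining complex IV genes, Cox6b1, whose product faces the intermembrane space, read 13.56, 13.66 and 13.68 in wild type, 13.64, 13.63 and 13.58 in sufficient Lrat-/- and 13.75, 13.69 and 13.71 in deficient Lrat-/- samples. Its deficient arrays were above both other groups without overlap, by 0.10 from the sufficient Lrat-/- arrays (unadjusted p = 0.145). Cox6b2, its testis form, gave 6.60, 6.51 and 6.51 on wild-type arrays, 6.59, 6.60 and 6.57 on sufficient Lrat-/- arrays and 6.87, 6.79 and 6.79 on deficient Lrat-/- arrays. The deficient arrays were again above both other groups, by 0.23 ± 0.06 from the sufficient Lrat-/- arrays, and this had the lowest unadjusted p of the members by diet, at 0.00401 (adjusted p = 0.959). Cox7b2, a testis form of subunit 7b, read 4.77, 4.42 and 4.81 in wild type, 4.30, 4.43 and 4.42 in sufficient Lrat-/- and 4.10, 4.42 and 4.41 in deficient Lrat-/- samples, with a log2 difference of -0.28 between genotypes and wild-type array 2 inside the Lrat-/- range. Cox6b2 and Cox7b2 were both below 7.53, the level under which 95% of the negative control probe sets lay. Cox5a, Cox5b, Cox6c, Cox7b, Cox7c and Cox8c had genotype differences from 0.00345 for Cox5a to 0.05 for Cox7c.

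Several probe sets were available for 11 of the members. Their genotype differences had the same sign in all 11 genes and their diet differences in 10, the exception being Cox7b with values near 0. Whether the probe sets of a gene share sequence or lie at a near-identical copy was not tested. Their shared sign is therefore not independent support for a difference. The authors' deposited p-values were under 0.05 for 2, 4 and 7 of the 45 members in the comparisons by genotype, by diet and by both, where 6.23%, 4.89% and 7.74% of all probe sets were, and 0 members passed after Benjamini-Hochberg adjustment of the authors' deposited p-values. The direction in the authors' deposited table was the same as that of the limma fit for 38, 36 and 40 members.

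The subunits that mitochondria encode themselves were measured for 4 of 6 genes. These are COX1, COX2 and COX3, the catalytic core of complex IV, and ATP6, through which protons enter ATP synthase. ATP6 read 13.71, 13.87 and 13.83 on wild-type arrays, 13.87, 14.07 and 14.10 on sufficient Lrat-/- arrays and 13.74, 13.87 and 13.88 on deficient Lrat-/- arrays. COX2 gave 13.73, 13.85 and 13.81 in wild type, 13.85, 14.01 and 14.03 in sufficient Lrat-/- and 13.77, 13.85 and 13.85 in deficient Lrat-/- samples. All 4 were higher on the Lrat-/- label on the sufficient diet, with a median of 0.15, and all 4 were lower on the deficient than on the sufficient diet, with a median of -0.14. The lowest unadjusted p-values were 0.0322 for ATP6 and 0.0457 for COX2 by genotype, and none passed. Their medians had the opposite sign to the medians over all members in both comparisons, and the difference between them was not tested. The nuclear genes of complex IV, taken alone, had a genotype median of the same sign, at 0.02 (12 of 18 higher). Without wild-type array 3 the genotype median over all members was 0.00477. Their diet median was 0.01 after a further quantile normalization. The levels of the mitochondrially encoded transcripts cannot be set against those of the nuclear genes on an array.

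Genes around the pathway were read from 7 lists, of which 60 of 65 genes were measured. None of the 60 passed in any comparison, and at an unadjusted p under 0.05 there were 5 higher and 2 lower by genotype, 1 higher and 1 lower by diet, and 4 higher and 4 lower for both together. Of all genes 3.13% were higher and 3.77% lower by genotype, 2.31% and 2.07% by diet, and 3.75% and 5.29% for both together. Among complex IV assembly factors, Cox18, which inserts a part of COX2 into the membrane, had a log2 difference of -0.43 ± 0.10 by genotype (unadjusted p = 0.00158, adjusted p = 0.274), and Cox20, a chaperone of COX2, one of 0.41 ± 0.14 (unadjusted p = 0.0198). Among complex III assembly factors, Uqcc was higher by 0.41 ± 0.13 and Lyrm7, which guards the Rieske protein before it is inserted, by 0.32 ± 0.11. Mnf1, the assembly factor now named Uqcc2, differed by -0.18 between genotypes and by 0.17 between diets. The inhibitor of ATP synthase, Atpif1, differed by -0.21 ± 0.12 and 0.23 ± 0.12. Among regulators, Ppargc1b, a coactivator of mitochondrial genes, differed by -0.31 ± 0.10 between diets (unadjusted p = 0.0139), and its relative Ppargc1a by -0.26 ± 0.13.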

How the data were processed

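Left ventricles were measured on 9 arrays, 3 per group, with groups taken from the sample titles. Values were taken from the deposited log2 table with 1 column per sample, made by RMA (background correction, quantile normalization between arrays and 1 summary value per probe set). RMA, R 3.1.2 and build mm8 are named per the submitters' processing notes, with no roles given for the last 2. No header states the log2 scale, which follows from the range of the values. Gene symbols came from the authors' comparison table, which also holds, per the file headers, a deposited ratio for each pair of groups and a deposited p-value for each pair and for the 3 groups; their computation is not described. In another deposited RMA table, none of the 9 value columns matched a label; they were left unread, and its text columns served to find the 5222 negative controls.

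Of 35556 probe sets, 26107 had a symbol, and the brightest probe set of each gene was kept. All 23069 genes were fitted with limma 3.58.1 in R 4.3.3 (1 mean per group, contrasts, eBayes; two-sided). Benjamini-Hochberg adjustment ran over all of these genes, and the threshold was 0.05. The fit was tested on simulated data. Errors beside log2 differences are the model's standard errors with 3 arrays per group. Members, lists and the rule for named genes were chosen with earlier results of these data known. Values on every array are given for members past the threshold, for the 4 of each complex with the lowest p-values by genotype and by diet, and for 4 isoform pairs. Of the 65 genes on the pathway lists, 5 were not matched (mt-Cytb, mt-Atp8, Pet100, Pet117 and Cmc2). Of the red blood cell markers 5 were measured, 2 were not matched by symbol and 1 more is not reported here. Promoters came from RefSeq tables of GRCm38.p6 for 35 of 45 members. Replicate numbers recur in every group. Same-numbered deficient and sufficient Lrat-/- arrays deviated together (correlations of 0.21 to 0.26 over all genes), which comes from the data and not from the labels, while not every pair with wild type did (-0.14 to 0.12). Alternatives changed the probe set rule, the filter on dim genes, the normalization, the variance prior, the samples fitted and the replicate block, or left out each array. Plots were made with Python 3.11.15 and matplotlib 3.10.9.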

Additional observations from a re-analysis of the deposited data

How the results depend on the processing

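Of 1558 recomputed differences and medians, 51 changed sign, 43 of them for single genes and 8 for complex medians. None of the 43 passed the threshold, and the starting sizes of all 51 were at most 0.071. After quantile normalization again, signs changed by diet for Uqcrc1 (-0.048), Cox7a2 (-0.0063), Atp5f1 (-0.061), Uqcr11 (-0.0039) and Cox8b (-0.0094) and for both together for Uqcrq (-0.039), Cycs (-0.018), Atp5g1 (0.0065), Cox4i1 (-0.048) and Cox8a (-0.065). With each array left out in turn, signs changed by genotype for Atp5k (-0.12 to 0.19), Cox4i2 (-0.17 to 0.27), Cox8a (-0.030 to 0.093), Cox6b1 (-0.054 to 0.0058) and Atp5g3 (-0.11 to 0.0097). By diet they changed for Cox8a (-0.065 to 0.016), Cox6a1 (-0.11 to 0.11), Uqcrc1 (-0.053 to 0.084), Cox7a1 (-0.0011 to 0.018), Cox8b (-0.00898 to 0.045), Cox7b2 (-0.12 to 0.034), Atp5a1 (-0.043 to 0.022) and Atp5f1 (-0.011 to 0.033). For both together they changed for Uqcrq (-0.026 to 0.047), Cycs (-0.0061 to 0.083), Cox4i1 (-0.092 to 0.094), Cox8a (-0.056 to 0.068), Atp5g1 (-0.058 to 0.055) and Uqcr11 (-0.074 to 0.030). With an array left out, the median of complex IV by genotype ran from -0.0067 to 0.05, that of ATP synthase for both together from -0.022 to 0.078 and that of complex III for both together from -0.070 to 0.012. After quantile normalization again, the complex III median by diet was -0.0039 and that of ATP synthase for both together -0.022. The count of members called between genotypes rose from 0 to 1 (Atp5e) when genes under 6 or under 7 were left out (1 in each) and with quantile normalization again (1), and it ranged from 0 to 1 with each array left out. With genotype and diet together the count of 1 went to 0 in a fit of those 2 groups alone, and ranged from 0 to 1 with an array left out. For the F test the count of 1 went to 0 with every probe set tested (adjusted p of Atp5e = 0.0822), to 0 with the replicate block (0.0705), and ranged from 0 to 1 with an array left out, where Atp5e kept the call only without wild-type array 3 (0.0103). The replicate block changed no other call, and the diet comparison had 0 members called with and without it, also in the block fit of the 6 Lrat-/- arrays, which was added after seeing the data. The median of complex III for genotype and diet together was -0.089 after quantile normalization again, against -0.03. The cause of these shifts was not tested. None of the other 24 members named with array values changed a call. Fits with an array left out and a group of 2 rest on a spread shared by all groups. Signals near the top of the scale, and the 3 members near the negative controls, limit what differences can be read.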

Other observations

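The genes that lie next to Atp5e on chromosome 2 in the gene table were read after the values of Atp5e were seen. Slmo2, listed in the gene table as Prelid3b and next to Atp5e on one side, read 10.56, 10.57 and 10.89 on wild-type arrays, 10.86, 10.85 and 10.86 on sufficient Lrat-/- arrays and 10.87, 10.94 and 10.95 on deficient Lrat-/- arrays. Its log2 difference was 0.18 ± 0.09 between genotypes and 0.25 ± 0.09 for genotype and diet together (unadjusted p = 0.0237, limma adjusted p = 0.48), with wild-type array 3 inside the Lrat-/- range. Tubb1, a tubulin of blood platelets and the neighbour on the other side, differed by 0.08 ± 0.08 between genotypes. The next genes outward, Ctsz and Zfp831, differed by -0.25 ± 0.11 and -0.02 ± 0.09, and none of the 4 passed.

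In the authors' deposited table, Atp5b, the catalytic beta subunit of ATP synthase, had a ratio of 0.928 between diets with a p-value of 0.00369. The limma fit gave a log2 difference of -0.06, or 0.956-fold (unadjusted p = 0.282, adjusted p = 0.959). After Benjamini-Hochberg adjustment of the deposited p-values, 0 members passed by diet.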
